A study of Mus musculus with 23 samples.

Results

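Thrombomodulin (Thbd), VE-cadherin (Cdh5), T-cadherin (Cdh13), the tetraspanin Tspan7, the growth factor Vegfa, its receptor Flt1, P-selectin (Selp) and vascular cell adhesion molecule (Vcam1) were taken by gene name from a panel of 754 mouse genes, as 8 genes of the vessel wall and of the signals it receives. Cdh5, Cdh13, Thbd and Tspan7 are described as resting-vessel genes, Vegfa and Flt1 as a ligand and receptor pair, and Selp and Vcam1 as activation genes. RNA of the left lung was measured by NanoString nCounter, which counts colour-coded probes bound to each transcript without amplification, in 23 mice. Wild-type (WT) mice and Fat-1 mice, which carry a Caenorhabditis elegans desaturase gene that turns omega-6 into omega-3 fatty acids, were instilled 14 times with organic dust extract or with the vehicle PBS, called saline here. The sources used here do not give the transgene's promoter, the strain or the ages. All lungs, saline lungs included, had been lavaged before the left lobe was tied off and stored in RNAlater, so each value is for whole washed lung tissue and each lung is a separate mouse. By extract code, 7 dust lungs were WT (4 from females, 3 from males) and 6 were Fat-1 (3 from each sex). Of the saline lungs 5 were WT (2 from females, 3 from males), and the 5 Fat-1 lungs had the same split by sex. The code also gives an extraction date, which the labels do not tie to the tissue or to the RNA. The 12 lungs of the earlier date are called day 1 and the 11 lungs of the later date day 2.

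The inner lining of a resting blood vessel is sealed by VE-cadherin junctions and kept free of clots by thrombomodulin, which binds thrombin and turns it towards activating the anticoagulant protein C. An activated endothelium brings P-selectin to its surface, which lets leukocytes roll, and makes VCAM1, which lets them adhere firmly through integrins that contain the Itga4 subunit. In the lung much of the VEGF-A that keeps the capillary bed alive comes from alveolar epithelium, and FLT1 on endothelial cells binds it tightly. Selp is also stored in platelets, Vcam1 is also made by stromal cells and some macrophages, and Thbd is also present on some myeloid cells, so none of these RNAs belongs to endothelium alone.

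Promoters are shown for the members that the RefSeq promoter table (build GRCm38.p6) held, because these members moved apart after dust: Selp rose, whereas Flt1, Vegfa and Tspan7 fell. Entries were found for Selp, Flt1, Vegfa and Tspan7. Each sequence is the 250 bases before an annotated start, read 5′ to 3′ on the gene's own strand, and capitals mark matches on either strand to 6 short motifs. The windows are Selp at chr1:164115014-164115263 on the plus strand, Flt1 at chr5:147726012-147726261 on the minus strand, Vegfa at chr17:46032378-46032627 on the minus strand, and Tspan7 at chrX:10484866-10485115 on the plus strand.
Selp: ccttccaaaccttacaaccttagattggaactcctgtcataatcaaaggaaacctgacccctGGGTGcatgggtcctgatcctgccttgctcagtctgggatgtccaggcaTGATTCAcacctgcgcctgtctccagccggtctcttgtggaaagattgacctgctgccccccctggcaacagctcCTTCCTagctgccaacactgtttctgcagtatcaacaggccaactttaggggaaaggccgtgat
Flt1: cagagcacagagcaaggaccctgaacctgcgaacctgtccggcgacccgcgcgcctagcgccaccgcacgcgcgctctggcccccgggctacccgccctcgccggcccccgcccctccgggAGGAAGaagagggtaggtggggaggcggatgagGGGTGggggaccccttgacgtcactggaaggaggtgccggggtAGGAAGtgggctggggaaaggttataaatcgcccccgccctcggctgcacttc
Vegfa: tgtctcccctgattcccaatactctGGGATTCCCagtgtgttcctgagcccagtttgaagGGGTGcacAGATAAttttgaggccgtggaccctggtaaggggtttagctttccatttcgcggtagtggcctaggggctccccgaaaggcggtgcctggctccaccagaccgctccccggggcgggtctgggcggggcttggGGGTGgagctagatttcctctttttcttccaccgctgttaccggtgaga
Tspan7: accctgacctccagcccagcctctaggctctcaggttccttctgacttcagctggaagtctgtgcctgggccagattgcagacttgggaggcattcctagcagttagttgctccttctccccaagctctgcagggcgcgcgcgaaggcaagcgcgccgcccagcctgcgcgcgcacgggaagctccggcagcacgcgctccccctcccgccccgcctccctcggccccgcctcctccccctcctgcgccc
The motifs, with the share of 32851 windows of the same length that held them, were GGGNTTNCC for NF-kappa-B (3.99%), TGANTCA for AP-1 (6.75%), AGATAA for GATA factors (9.99%), ACGTG for the hypoxia response element (16.6%), AGGAAG for ETS factors (29.5%) and CACCC for KLF factors (52.0%). Positions are counted back from the start. The Selp window held TGATTCA at -139, KLF letters at -188 and ETS letters at -64. TGATTCA matches the AP-1 pattern used here, in which N stands for any base, and it was not checked against a stricter AP-1 site. The Flt1 window held ETS letters at -129 and -53 and KLF letters at -96. The Vegfa window held NF-kappa-B letters at -225, GATA letters at -182 and KLF letters at -190 and -49. A second Vegfa window, at chr17:46025164-46025413 on the minus strand, had hypoxia response element letters at -211 and KLF letters at -49. It lies downstream of the first Vegfa start, inside the gene as read from there. Its letters may therefore be part of the transcript and not of a promoter. The Tspan7 window held none of the 6 motifs. GC content was 53.6% for Selp, 59.2% for Vegfa, 69.2% for Tspan7 and 70.4% for Flt1.

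Values are normalized counts as deposited, with a floor of 20 that marks counts too low to be reported. All 8 genes were tested, and 6 of them were above the floor in every lung. Cdh13 was at the floor in Fat-1 female dust lung 2 of day 1, and Selp was at the floor in Fat-1 male saline lung 1 of day 1. In these lungs a 20 stands for any value under 47.3 for Cdh13 and under 84.3 for Selp, so it enters means and folds as a placeholder. Between 110453 and 812429 counts per lung lay behind the values, and 2 lungs, Fat-1 male dust lung 1 of day 2 and WT male saline lung 1 of day 2, carried the instrument's message of a saturated image. For 4 lungs the title or characteristics disagreed with the extract code used here: Fat-1 female saline lung 1 of day 1, Fat-1 male dust lung 1 of day 1, Fat-1 male saline lung 2 of day 2 and WT male saline lung 2 of day 2. Fat-1 female dust lung 2 of day 1 stood apart from the other dust lungs in several members, as described for each. Of 16 endothelial markers listed, 5 were measured (Cdh5, Tek, Flt1, Cd34 and Ptprb), and none was at the floor in any lung. Their summed level was 4402 to 6918 in dust and 6601 to 9477 in saline lungs, a sum that includes the members Cdh5 and Flt1. The other 11, among them Pecam1, Kdr and Vwf, were not analysed here.

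Dust against saline was compared over both genotypes and sexes to see how the vessel genes differed after repeated dust. All 6 resting-vessel and VEGF genes fell, and both activation genes rose. The falls ran from 1.38-fold for Flt1 to 2.12-fold for Thbd, and the rises were 1.36-fold for Vcam1 and 1.99-fold for Selp. By limma's test with Benjamini-Hochberg adjustment over 711 genes (adjusted p under 0.05), 8 of 8 members were called. Of all 711 genes 53.3% were called, 43.3% higher and 9.99% lower in dust, so falls were the less common direction on this panel and rises the usual one. The median log2 fold change of all genes was 0.26. In bulk lung RNA, fewer cells of a type and less RNA per cell cannot be told apart, for these and all later values.

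**Figure D1:**
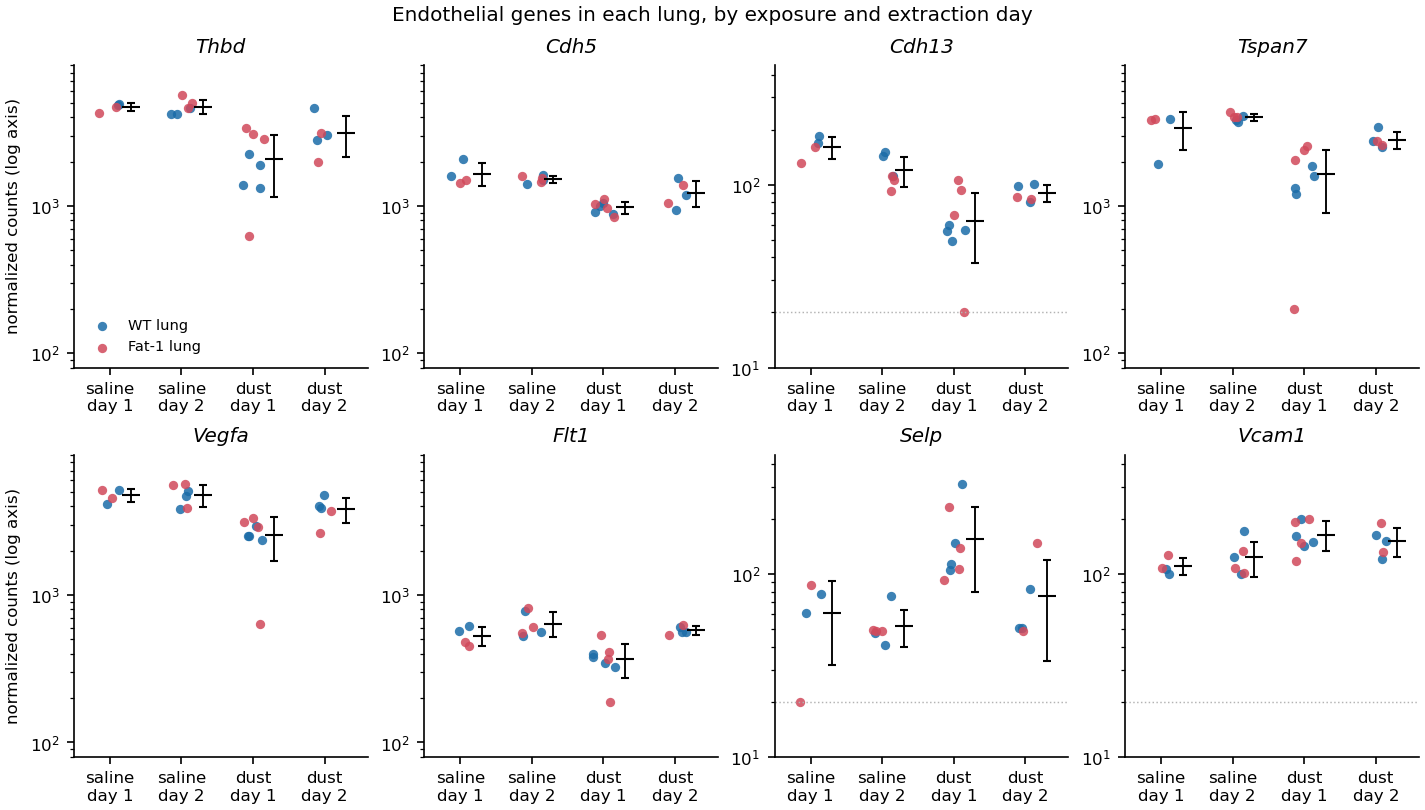
Normalized counts of the 8 genes in each lung (log axis), for saline and dust lungs of each extraction day; points are lungs, coloured by genotype, and the bar is the mean with SD. In Thbd, Cdh5, Cdh13 and Vegfa every dust lung of day 1 lies below every saline lung of day 1. The share of all genes that separate in this way was not counted. The dotted line marks the floor of 20.

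Thbd had the largest fall of the 8 genes. In 13 dust lungs its level was 629 at the lowest, 2787 at the median and 4582 at the highest, and in 10 saline lungs it was 4211, 4672 and 5657. Of the dust lungs, 12 lay below every saline lung, and the exception was WT female dust lung 2 of day 2. The mean was 2482 ± 1043 normalized counts in dust (SD, n = 13) and 4711 ± 438 in saline (SD, n = 10). The log2 fold change was -1.09 (SE 0.26, limma adjusted p = 0.00185), the 5th lowest of 711 genes. Saline lungs held Thbd within a narrow band on both days, with means of 4699 ± 289 on day 1 (SD, n = 4) and 4719.5 ± 544 on day 2 (SD, n = 6). Dust lungs averaged 2095 ± 953 on day 1 (SD, n = 8) and 3103 ± 943 on day 2 (SD, n = 5).

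Cdh5, the cadherin of endothelial adherens junctions, had a smaller fall and the smallest SE among the 8 genes. Its level in dust lungs was 844 at the lowest, 1027 at the median and 1537 at the highest, against 1404, 1523 and 2087 in saline lungs. Again 12 of 13 dust lungs lay below every saline lung, with WT female dust lung 2 of day 2 the exception. The mean was 1069.6 ± 200.4 in dust (SD, n = 13) and 1572 ± 196 in saline (SD, n = 10). The log2 fold change was -0.58 (SE 0.11, limma adjusted p = 2.84e-04). This call was kept without each of the 23 lungs in turn, with log2 fold changes from -0.65 to -0.51.

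Cdh13, a cadherin held in the membrane by a lipid anchor and a receptor for adiponectin, was measured near the floor. Its level in dust lungs was 20 at the lowest, 79.9 at the median and 105.5 at the highest, against 92.3, 138 and 185 in saline lungs. Of 13 dust lungs 9 lay below every saline lung, and all 13 lay below the saline median. The mean was 73.6 ± 24.7 in dust (SD, n = 13) and 136 ± 30.3 in saline (SD, n = 10), a log2 fold change of -0.95 (SE 0.22, limma adjusted p = 0.00146). With a common floor of 84.3 in every lung, the log2 fold change was -0.57.

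Tspan7, a tetraspanin abundant in lung endothelium, ranked 7th lowest of 711 genes. Its level in dust lungs was 199 at the lowest, 2394 at the median and 3448 at the highest, against 1912, 3892 and 4342 in saline lungs. Only 5 of 13 dust lungs lay below every saline lung, because WT female saline lung 1 of day 1 was at 1912. All 13 dust lungs lay below the next lowest saline lung, at 3706. The mean was 2095 ± 851 in dust (SD, n = 13) and 3757 ± 671 in saline (SD, n = 10), a log2 fold change of -1.03 (SE 0.34, limma adjusted p = 0.0173). With Fat-1 female dust lung 2 of day 1 and WT female saline lung 1 of day 2 both left out, which earlier results of these data had put in doubt, the log2 fold change was -0.61 (limma adjusted p = 0.00839). Without WT female saline lung 1 of day 2 alone it was -0.91 and lost the call (limma adjusted p = 0.0539).

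Over all lungs Vegfa, the ligand, fell more than Flt1, the receptor that binds it, but in WT lungs the 2 falls were alike (-0.49 and -0.50). Vegfa in dust lungs was 638 at the lowest, 2949 at the median and 4746 at the highest, against 3847, 4886 and 5720.4 in saline lungs. For Vegfa, 10 of 13 dust lungs lay below every saline lung, and all 13 lay below the saline median. The Vegfa mean was 3031 ± 1008 in dust (SD, n = 13) and 4784 ± 668 in saline (SD, n = 10), a log2 fold change of -0.77 (SE 0.23, limma adjusted p = 0.0108). Flt1 in dust lungs was 189 at the lowest, 412 at the median and 632 at the highest, against 455, 565 and 816 in saline lungs. The Flt1 ranges overlapped more, with 7 of 13 dust lungs below every saline lung and 10 below the saline median. The Flt1 mean was 449.8 ± 131 in dust (SD, n = 13) and 597 ± 117 in saline (SD, n = 10), a log2 fold change of -0.46 (SE 0.18, limma adjusted p = 0.0365). This was the least stable of the 8 calls: it was lost without any 1 of 12 of the 23 lungs, where the adjusted p reached 0.0827. The difference of log2 values within a lung, Vegfa minus Flt1, was lower in dust by 0.31 on average. With Fat-1 female dust lung 2 of day 1 left out it was lower by 0.23. In WT lungs this difference averaged 2.845 in dust and 2.912 in saline, and in Fat-1 lungs 2.528 and 3.11. None of this was tested.

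Selp, the selectin that captures rolling leukocytes, rose from values near the floor. Its level in dust lungs was 48.8 at the lowest, 106 at the median and 310.3 at the highest, against 20, 49.0 and 86.7 in saline lungs. Of 13 dust lungs 9 lay above every saline lung, and 12 lay above the saline median. The mean was 125 ± 75.1 in dust (SD, n = 13) and 55.6 ± 19.9 in saline (SD, n = 10), a log2 fold change of 1.00 (SE 0.30, limma adjusted p = 0.0102). It ranked 154th from the highest of 711 genes. With the common floor, which sits near the highest saline value of Selp, the log2 fold change was 0.55 (limma adjusted p = 0.0241).

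Vcam1, the ligand of integrins that contain Itga4, rose less. Its level in dust lungs was 118 at the lowest, 152 at the median and 201 at the highest, against 100.2, 108 and 171 in saline lungs. All 13 dust lungs lay above the saline median, and 4 lay above every saline lung. The highest saline value was in WT male saline lung 1 of day 2, a lung with the saturation message, and the next highest was 134. The mean was 159 ± 28.9 in dust (SD, n = 13) and 118 ± 22.1 in saline (SD, n = 10), a log2 fold change of 0.44 (SE 0.12, limma adjusted p = 0.00627). Vcam1 ranked 285th from the highest of 711 genes.

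**Figure D2:**
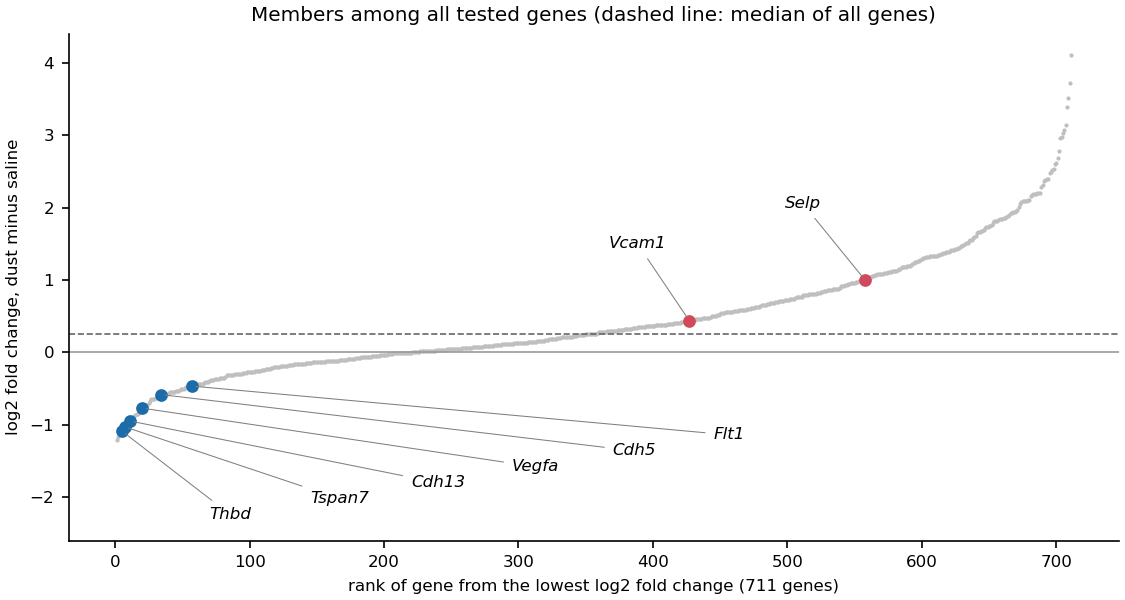
Log2 fold change of dust against saline for 711 genes (vertical axis) by rank from the lowest (horizontal axis), with the 8 members named and the median of all genes, 0.26, as a dashed line. The 6 falling members rank between 5th and 57th from the lowest, and Selp and Vcam1 lie within the broad upper part of the panel.

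Because most of the panel's genes were higher in dust, the scale on which lungs are compared bears on the size of each change. As deposited, 308 genes were called higher and 71 lower. With each lung rescaled on its 20 housekeeping genes the split was 255 to 115 and the median of all genes was 0.12. With each lung centred on the median of the 470 genes above the floor in every lung, it was 202 to 244 with a median of -0.13. The 6 falling members stayed called under both scalings and moved further down, Thbd to -1.48 and Cdh5 to -0.97 under median centring. Selp went to 0.86 on the housekeeping scale (limma adjusted p = 0.0172) and to 0.60 under median centring (limma adjusted p = 0.0558). Vcam1 went to 0.30 (limma adjusted p = 0.034) and to 0.05 (limma adjusted p = 0.702). Selp and Vcam1 each passed the threshold on 2 of the 3 scales.

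**Figure D3:**
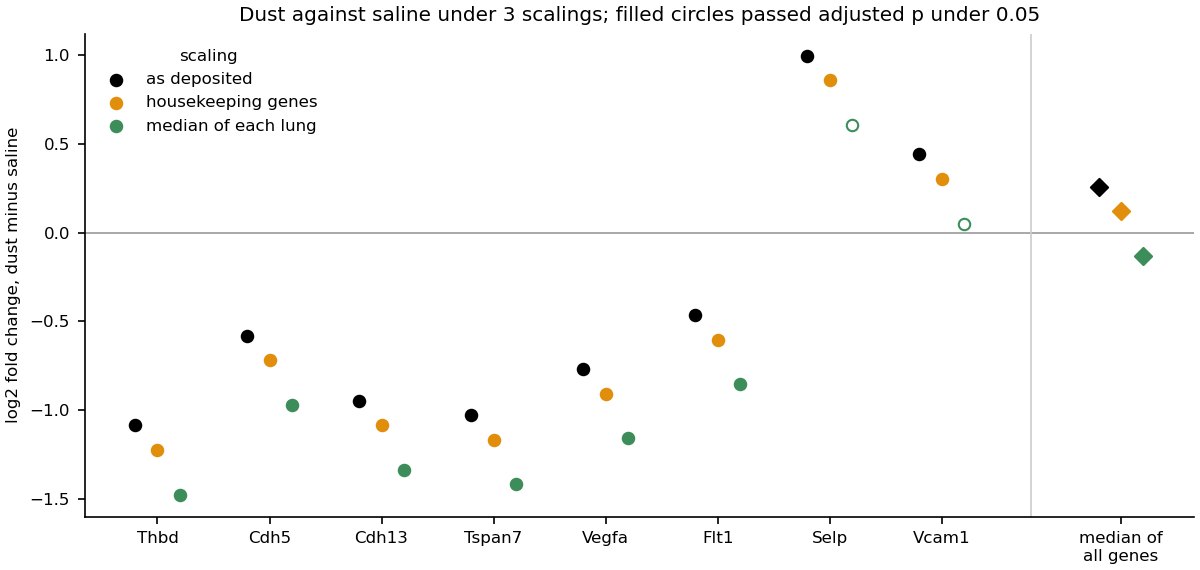
Log2 fold change of dust against saline for the 8 members under 3 scalings (circles, filled where the adjusted p was under 0.05), with the median of all genes as diamonds. Vcam1 moves from 0.44 as deposited to 0.05 under median centring, while Thbd, Cdh5, Cdh13, Tspan7, Vegfa and Flt1 stay below 0 under each scaling.

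Differences taken within a lung do not depend on the scale factor, except where a gene is at the floor, which is left unscaled. This holds for Selp in 1 saline lung and Cdh13 in 1 dust lung. The mean log2 value of Selp and Vcam1 minus that of Thbd, Cdh5, Cdh13 and Tspan7 was -2.49 ± 0.93 in dust (SD, n = 13) and -4.13 ± 0.30 in saline lungs (SD, n = 10). All 13 dust lungs lay above every saline lung, and no test is given because the direction is fixed by the choice of genes. The difference between exposures was 1.64, or 1.29 with the common floor and 1.53 without the 2 lungs doubted in earlier results. The highest value, -0.56, was in Fat-1 female dust lung 2 of day 1, the lung with Cdh13 at the floor. Set against Cdh5 alone, Selp was higher in dust by 1.61 and Vcam1 by 0.99 (log2), with 9 and 12 of 13 dust lungs above every saline lung. Against Cdh5, Thbd was lower in dust by 0.50, Tspan7 by 0.47, Cdh13 by 0.38 and Vegfa by 0.20, and Flt1 was higher by 0.12. With Fat-1 female dust lung 2 of day 1 left out, Tspan7 was lower than Cdh5 by 0.23 and Vegfa by 0.04, and Thbd was lower by 0.38, Cdh13 by 0.27 and Flt1 higher by 0.19. These differences from Cdh5 were not tested.

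**Figure D4:**
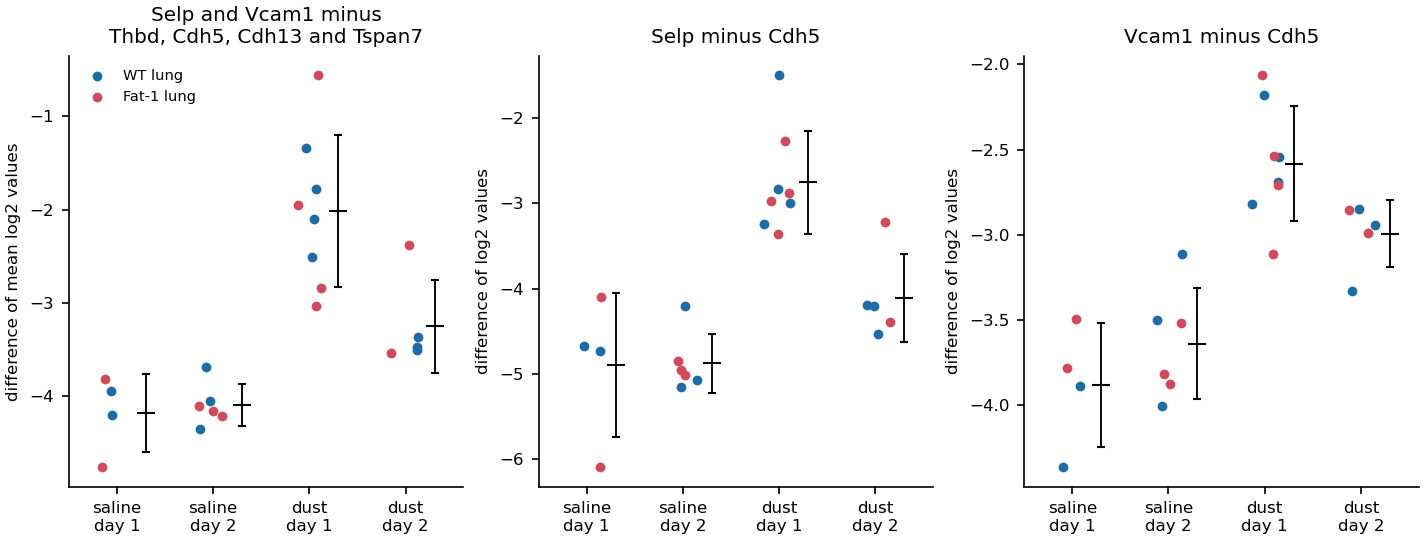
Differences of log2 values within each lung, for saline and dust lungs of each day: both activation genes minus the 4 resting-vessel genes, Selp minus Cdh5, and Vcam1 minus Cdh5; points are lungs and the bar is the mean with SD. In the first panel the dust lungs average -2.01 on day 1 and -3.25 on day 2, above all saline lungs.

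The extraction days were compared next, since they split both exposures: 8 dust and 4 saline lungs were of day 1, and 5 dust and 6 saline lungs of day 2. Day and cartridge largely ran together. One cartridge held 10 lungs of day 1 and 2 of day 2, and the other 9 of day 2 and 2 of day 1. Differences between days can therefore hardly be told apart from differences between cartridges. On day 1 all 8 members were called, in the directions given above, where 53.2% of all genes were called (41.6% higher, 11.5% lower). The largest day 1 changes among them were Cdh13 at -1.45 (limma adjusted p = 1.12e-04), Selp at 1.39 (limma adjusted p = 0.0044) and Thbd at -1.33 (limma adjusted p = 0.00195). Cdh5 was at -0.75 (limma adjusted p = 1.18e-04), Tspan7 at -1.25 (0.0201), Vegfa at -1.03 (0.00683), Flt1 at -0.56 (0.0202) and Vcam1 at 0.55 (0.011). Without Fat-1 male saline lung 1 of day 1, the lung with Selp at the floor, Selp was at 0.91 (limma adjusted p = 0.0449). On day 1 Flt1 lost its call without either WT saline lung, WT female saline lung 1 (adjusted p = 0.0818) or WT male saline lung 1 (0.0507), and Tspan7 lost it without Fat-1 female saline lung 1 (0.0747). On day 1 Vcam1 also lost its call when lungs were rescaled on housekeeping genes (0.39, limma adjusted p = 0.0526) and under median centring (0.07, limma adjusted p = 0.704).

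On day 2 none of the 8 members was called by limma, where 13.2% of all genes were called (12.8% higher, 0.422% lower). Only Cdh5 had an unadjusted p under 0.05, with a log2 fold change of -0.35 (95% interval -0.63 to -0.06, adjusted p = 0.0984). All 8 had the sign they had on day 1, but without Fat-1 male dust lung 1 of day 2 Selp was at -0.04, Vegfa at -0.09, Vcam1 at 0.17 and Thbd at -0.39, and without WT female saline lung 1 of day 2 Flt1 was at -0.01. Thbd was at -0.62 (95% interval -1.31 to 0.06), Tspan7 at -0.41, Cdh13 at -0.32, Vegfa at -0.29 and Flt1 at -0.11. Selp was at 0.39 (95% interval -0.41 to 1.19) and Vcam1 at 0.30. Among all genes, Thbd ranked 3rd lowest on day 2.

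The difference between the days' dust effects was tested as an interaction. No member passed, where 1.69% of all genes did, each of them with a lower dust effect on day 2. For Cdh13 the dust effect was 1.13 higher on day 2 on the log2 scale, that is, a smaller fall (95% interval 0.35 to 1.91, unadjusted p = 0.00652, limma adjusted p = 0.117). Without Fat-1 male dust lung 1 of day 2, one of the saturated lungs, Cdh13 and Selp passed, with limma adjusted p-values of 0.0398 and 0.0477. For Thbd, Tspan7 and Vegfa the intervals of the difference ran from -0.26 to 1.68, from -0.45 to 2.13 and from -0.15 to 1.63.

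Within the dust lungs the resting-vessel and VEGF genes were higher on day 2 and Selp was lower. Flt1 in the 5 day 2 dust lungs was 532 and 632 in the Fat-1 lungs and 561, 566 and 607 in the WT lungs, against 189 to 533 in the 8 day 1 dust lungs. These ranges met only where Fat-1 male dust lung 2 of day 1, at 533, reached the lowest day 2 lung. Flt1 differed by 0.70 (limma adjusted p = 0.0191) and Selp by -1.07 (limma adjusted p = 0.0489), where 15.2% of all genes were called (1.97% higher, 13.2% lower). Selp in day 2 dust lungs was 48.8 and 148 in the Fat-1 lungs and 50.4, 50.4 and 82.2 in the WT lungs, and in day 1 dust lungs it ran from 93.1 to 310.3, so that the lung at 148 lay inside the day 1 range. The other 6 members did not pass: Tspan7 differed by 1.08 (adjusted p = 0.0726, the 2nd highest difference of 711 genes), Vegfa by 0.70 (0.0849), Thbd by 0.70 (0.11), Cdh13 by 0.64 (0.0761), Cdh5 by 0.30 (0.101) and Vcam1 by -0.11 (0.642). These calls turned on single lungs. Without Fat-1 male dust lung 1 of day 2, Thbd at 0.92 (limma adjusted p = 0.0377) and Vegfa at 0.88 (limma adjusted p = 0.0316) passed as well, with Selp at -1.47 (limma adjusted p = 0.0035). With Fat-1 female dust lung 2 of day 1 left out, Tspan7 was at 0.67 and passed (limma adjusted p = 0.0242). Flt1 lost its call without 3 of the 5 day 2 lungs, where its adjusted p was 0.051, 0.0592 and 0.0618, and Selp lost its call without 16 single lungs. In saline lungs no member differed between the days by limma, where 0.141% of all genes were called, and none had an unadjusted p under 0.05.

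Single lungs were then set out by day within each genotype, first the WT dust lungs, 4 of day 1 and 3 of day 2. Thbd there was 1326, 1391, 1901 and 2264 on day 1 and 2787, 3049 and 4582 on day 2. Vegfa was 2353, 2505, 2521 and 2949 on day 1 and 3928, 4014 and 4746 on day 2. Tspan7 was 1212, 1321, 1605 and 1852 on day 1 and 2494, 2775 and 3448 on day 2, and Cdh13 was 49.0, 55.8, 56.5 and 60.1 on day 1 and 79.9, 98.9 and 100.5 on day 2. For these genes no WT dust lung of day 1 reached a WT dust lung of day 2. The same held for Flt1, at 325 to 398 on day 1 and 561 to 607 on day 2. Selp separated the other way, at 105 to 310 on day 1 and 50.4 to 82.2 on day 2. Cdh5, at 880.0 to 1049 on day 1 and 939 to 1537 on day 2, overlapped, as did Vcam1. The share of all genes that separated by day in WT dust lungs was not counted. The Fat-1 dust lungs, 4 of day 1 and 2 of day 2, overlapped for Thbd, with 629, 2832, 3059 and 3354 on day 1 and 1978 and 3119 on day 2. Fat-1 dust lungs overlapped for Vegfa too, with 638, 2891, 3146 and 3321 on day 1 and 2657 and 3734 on day 2. Cdh13 overlapped in them as well, with 20 (the floor), 68.0, 93 and 105.5 on day 1 and 83.0 and 86.0 on day 2. Tspan7 did not overlap in Fat-1 dust lungs, with 199, 2061, 2394 and 2531 on day 1 and 2572 and 2774 on day 2. For Thbd and Vegfa the lower Fat-1 value of day 2 was in both cases Fat-1 male dust lung 1, which carried the saturation message. Whether the day difference in dust lungs differed between genotypes was not tested.

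The summed level of neutrophil markers had a lower median in dust lungs of day 2 than of day 1, with ranges that overlapped. That of macrophage and monocyte markers did not. The summed level of 11 neutrophil markers was 7575 to 43959 in dust lungs of day 1, 2273 to 19427 in dust lungs of day 2 and 1942 to 3974 in saline lungs. The sum of 12 macrophage and monocyte markers was 27228 to 40477 in dust lungs of day 1 and 15026 to 53664 in those of day 2. Its median was 33729 on day 1 and 38466 on day 2, and Chil3, with a mean of 21363 in dust lungs, weighed most in it. Taken gene by gene, both lists had a smaller dust effect on day 2. The median log2 fold change of dust against saline was 2.83 on day 1 and 0.91 on day 2 for neutrophil markers. For macrophage and monocyte markers it was 2.06 and 1.37. The summed level of the 5 endothelial markers, which include the members Cdh5 and Flt1, was 4402 to 5598 in dust lungs of day 1. In dust lungs of day 2 it was 5385 to 6918. The part of these cell types in the day difference of the members was not tested.

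The genotypes were compared to see whether Fat-1 lungs held these vessel genes at another level after dust or changed them differently. In WT lungs 3 members were called, Cdh5, Cdh13 and Thbd, all lower, where 35.3% of all genes were called (30.7% higher, 4.64% lower). Cdh5 was at -0.65 (limma adjusted p = 0.00386), Cdh13 at -1.10 (limma adjusted p = 0.0105) and Thbd at -1.03 (limma adjusted p = 0.0327). The other 5 members in WT did not pass, with Selp at 0.77 (0.165), Vcam1 at 0.39 (0.0905), Tspan7 at -0.74 (0.237), Flt1 at -0.50 (0.129) and Vegfa at -0.49 (0.258). Of these 5 members, 4 passed without 1 lung: Selp at 1.11 without WT male dust lung 1 of day 2 (limma adjusted p = 0.0272), Vcam1 at 0.51 without WT male saline lung 1 of day 2 (0.0276), and Vegfa (0.038) and Tspan7 (0.0194), at unchanged size, with Fat-1 female dust lung 2 of day 1 left out. Selp was at 0.46 without WT male dust lung 2 of day 1. In WT, Thbd lost its call without any 1 of 8 lungs, and Cdh13 without WT female saline lung 1 of day 1 (-0.92, limma adjusted p = 0.0778).

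In Fat-1 lungs 6 members were called, where 38.1% of all genes were called (32.2% higher, 5.91% lower). Tspan7 was at -1.31 (limma adjusted p = 0.0435), Thbd at -1.14 (0.0227), Vegfa at -1.04 (0.0227) and Cdh5 at -0.51 (0.0175), and Selp was at 1.22 (0.0348) and Vcam1 at 0.49 (0.0358). Cdh13 at -0.79 (limma adjusted p = 0.051) and Flt1 at -0.43 (limma adjusted p = 0.188) did not pass. Cdh13 passed without any 1 of 4 lungs (down to limma adjusted p = 0.0125), and with Fat-1 female dust lung 2 of day 1 left out it was at -0.48 and Flt1 at -0.21, neither called. Tspan7 in Fat-1 was at -0.71 and Vegfa at -0.65 when Fat-1 female dust lung 2 of day 1 was left out, and both calls were kept (limma adjusted p = 0.0458 and 0.0231). Single lungs decided many of these calls: of 23 lungs left out in turn, 14 ended the call of Tspan7, 8 that of Vcam1, 6 that of Selp, 3 that of Thbd, and 2 those of Cdh5 and of Vegfa. Without Fat-1 female saline lung 1 of day 2, no member was called in Fat-1.

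The larger number of calls in Fat-1 is no sign of a larger change, because the difference between the genotypes' dust effects was called for 0 of 711 genes (21 had an unadjusted p under 0.05, none of them a member). The interval of that difference (Fat-1 minus WT) ran from -1.99 to 0.87 for Tspan7, from -1.54 to 0.44 for Vegfa, from -1.18 to 0.98 for Thbd, from -0.31 to 0.60 for Cdh5 and from -0.81 to 1.72 for Selp (95%). Fat-1 and WT dust lungs were also compared directly. With equal weights 0 of 711 genes were called by limma, and 22 had an unadjusted p under 0.05, none of them a member. With lung weights 97 genes were called. Mean levels in the 6 Fat-1 and 7 WT dust lungs were 2495 ± 1031 and 2471 ± 1135 for Thbd, 1066 ± 183 and 1073 ± 229 for Cdh5, and 128 ± 62.1 and 123 ± 89.7 for Selp (SD). Vegfa had the widest gap, with 2731 ± 1090 in Fat-1 and 3288 ± 936 in WT dust lungs, a log2 difference of -0.40 (95% interval -1.05 to 0.25, limma adjusted p = 0.979), and of -0.01 with Fat-1 female dust lung 2 of day 1 left out. With lungs weighted by their spread, where Fat-1 female dust lung 2 of day 1 weighed 0.091, Thbd was 0.58 higher in Fat-1 dust lungs and passed (limma adjusted p = 0.0365), against -0.02 with equal weights. After saline the genotypes gave 0 calls by limma, with 10 genes at an unadjusted p under 0.05 and no member among them, and Cdh13 was at 120.3 ± 26.2 in Fat-1 and 152 ± 27.4 in WT lungs (SD, n = 5 each).

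**Figure D5:**
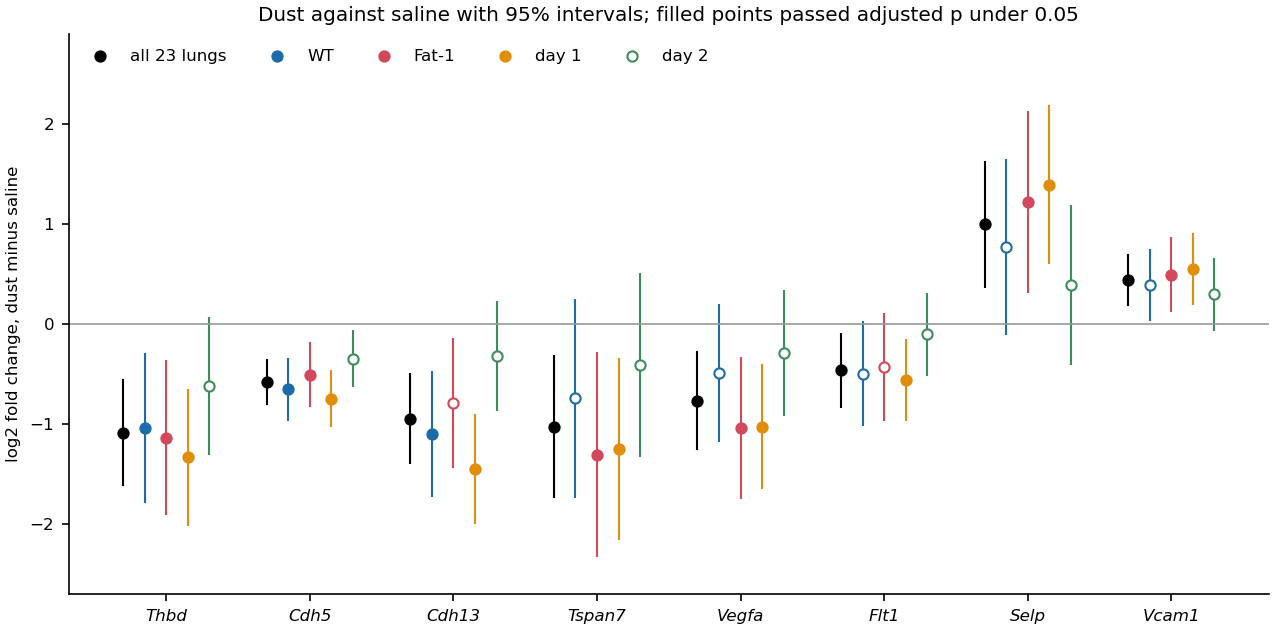
Log2 fold change of dust against saline for the 8 members over all lungs, in WT, in Fat-1, on day 1 and on day 2, with 95% intervals; filled points passed an adjusted p under 0.05. All 8 members are filled over all lungs and on day 1 and none on day 2, and the WT and Fat-1 intervals overlap for every member.

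Sex was compared over both exposures, and 0 of 711 genes were called by limma, with 17 at an unadjusted p under 0.05 and no member among them. The dust effect did not pass as different between the sexes for any gene (14 at an unadjusted p under 0.05, no member among them). Selp came nearest among the members, with a dust effect 1.16 lower in females on the log2 scale (95% interval -2.43 to 0.10, unadjusted p = 0.0696, limma adjusted p = 0.998). In female lungs Selp was 72.3 ± 16.1 after saline (SD, n = 4) and 105.5 ± 61.7 after dust (SD, n = 7). In male lungs it was 44.5 ± 13.7 after saline (SD, n = 6) and 148 ± 88.3 after dust (SD, n = 6).

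Other genes of the same pathways were read from lists that were chosen with earlier results of these data known. Of 12 listed VEGF pathway genes 4 were measured: Vegfa, Flt1, Vegfc and Hif1a. Hif1a, the oxygen-sensitive subunit of a transcription factor that can drive Vegfa, rose from 966 ± 113 in saline to 1926 ± 733 in dust (SD, n = 10 and 13), or by 0.93 on the log2 scale (limma adjusted p = 6.82e-04), while Vegfa fell. Vegfc, a lymphatic growth factor, was at -0.09 (limma adjusted p = 0.527), and at -0.48 under median centring (limma adjusted p = 0.00758).

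On the leukocyte side, 14 of 16 listed adhesion partners were measured, and of the 12 other than Selp and Vcam1, 6 rose and none fell, a share of rises near the 43.3% of all genes called higher. Selplg, the ligand of P-selectin on leukocytes, rose from 324 ± 51.5 to 884 ± 349.9 (SD, n = 10 and 13), or by 1.35 on the log2 scale (limma adjusted p = 1.11e-04). The integrin genes Itgam, Itgax, Itgb2 and Itgal were at 2.09, 1.86, 1.44 and 0.87, each with a limma adjusted p under 0.05, and Cd44, a hyaluronan receptor, was at 0.89 with 7 saline lungs at the floor. Under median centring, where 28.4% of all genes were called higher and 34.3% lower, 6 of the 14 rose and 2 fell. The median log2 fold change of the 14 was 0.66, beside 0.26 over all genes.

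Among 21 listed junction, cadherin and tetraspanin genes 8 were measured, and of the 5 other than Cdh5, Cdh13 and Tspan7, 3 fell and none rose, beside 9.99% of all genes called lower and 43.3% higher. Cdh2 (N-cadherin) was at -0.64 (limma adjusted p = 0.0185, or -0.27 with the common floor), Cdh11, a mesenchymal cadherin, at -0.50 (limma adjusted p = 0.0286), and the tetraspanin Cd151 at -0.31 (limma adjusted p = 0.0299). Cdh1 (E-cadherin), the junction cadherin of epithelium, was at 2568 ± 363 in saline and 2567 ± 247 in dust (SD, n = 10 and 13), and its log2 fold change was -0.002 (limma adjusted p = 0.99). F11r, a tight-junction protein of epithelium and endothelium, was at -0.12 (limma adjusted p = 0.594). The median of the 8 was -0.54, and under median centring, with 34.3% of all genes called lower, all 8 fell.

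Of 17 listed coagulation and fibrinolysis genes 5 were measured, and Thbd was the only one that fell on the deposited scale. Plaur, the urokinase receptor, rose from 498 ± 43.1 to 929.9 ± 266 (SD, n = 10 and 13; log2 fold change 0.87, limma adjusted p = 5.53e-05). Plau, urokinase itself, was at 0.88 (limma adjusted p = 0.00209) but at 0.18 with the common floor. Pros1, the protein S gene whose product assists protein C, was at -0.18 (limma adjusted p = 0.349), and at -0.57 under median centring, where it fell (limma adjusted p = 0.00733). Of 26 listed angiopoietin and other endothelial genes 9 were measured, of which 7 fell and none rose, beside 9.99% of all genes called lower, with a median of -0.56. Tek, the angiopoietin receptor, fell from 2061 ± 314 to 1116 ± 342 (SD, n = 10 and 13).

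Markers of other cell types moved with the exposure, read here against the 43.3% of all genes called higher and 9.99% called lower. Of 12 macrophage and monocyte markers measured 12 rose, with a summed level of 15026 to 53664 in dust and 8894 to 23860.3 in saline lungs. Of 10 neutrophil markers tested 8 rose. Of 12 platelet markers 2 were measured: Pf4, a platelet granule chemokine, was at 1.36 (limma adjusted p = 2.13e-04) and Clec1b, a platelet lectin receptor, at 0.18, with a summed level of 201 to 993 in dust and 172 to 293 in saline lungs. Of 13 lung epithelial markers 2 were measured, Lamp3 and Cdh1, with a summed level of 8119.5 to 12950 in dust and 7049 to 11532 in saline lungs. The 4 of 10 fibroblast and pericyte markers measured summed to 4382 to 11196 in dust and 3253 to 5241 in saline lungs, and 2 of 12 lymphocyte markers to 164 to 756 and 200.4 to 447. Of the 5 endothelial markers 4 fell, but Cdh5 and Flt1 are members. Of the other 3 markers 2 fell, and Cd34 was at 0.10 (limma adjusted p = 0.59). The part of each cell type in the members' changes was not tested.

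Among the 13 dust lungs the falling genes varied together. On median-centred log2 values, Pearson's r between pairs of Thbd, Cdh5, Cdh13, Tspan7, Vegfa and Flt1 ran from 0.66 (Cdh5 with Vegfa) to 0.96 (Vegfa with Tspan7). Selp was at -0.38 to -0.01 with the other 7 members, and at -0.01 with Vcam1. With Fat-1 female dust lung 2 of day 1 left out, Selp was at -0.59 (Vegfa) to -0.27 (Cdh5) with the falling genes and at 0.015 with Vcam1. All these values are descriptions over lungs that share 2 extraction days, and those over 13 lungs include Fat-1 female dust lung 2 of day 1. Over the 10 saline lungs r was -0.79 for Cdh5 with Tspan7, but 0.63 over 9 with WT female saline lung 1 of day 1 left out, the lung highest in Cdh5 and lowest in Tspan7. Over all 10, r was 0.57 for Cdh5 with Cdh13 and 0.04 for Thbd with Cdh13. For Vegfa with Tspan7 it was 0.40, and 0.86 without the same lung.

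Outside the 8 genes, the gene most like each member over the 13 dust lungs was found among 464 genes above the floor in every lung. For Tspan7 it was Yap1, a transcriptional coactivator of the Hippo pathway, with r of 0.99, which was 0.97 once Fat-1 female dust lung 2 of day 1 was left out and 0.93 in the 10 saline lungs. For Vegfa it was Gsn, the actin-severing protein gelsolin, with r of 0.99, 0.98 and 0.52 in the same order. For Flt1 it was Tek, with 0.96, 0.92 and -0.39, and for Cdh13 it was Gata2, a transcription factor of endothelial and mast cells, with 0.98, 0.95 and -0.56. Thbd was most like Lrp5, a Wnt co-receptor, with 0.98, 0.96 and 0.40, and then Cd36, a fatty acid and thrombospondin receptor of capillaries and macrophages, with 0.97, 0.97 and 0.03. Cdh5 was most like B4galt4, a galactosyltransferase, with 0.90, 0.90 and 0.61, and then Ptprb, the endothelial phosphatase that acts on VE-cadherin, with 0.89, 0.87 and 0.89. Selp, at the floor in 1 saline lung, was most like the chemokines Ccl22, with 0.85 in dust and 0.85 without the same dust lung, and Ccl2, with 0.77 and 0.82. Vcam1 had the weakest match, Gnai3, a G protein subunit, with 0.78, and 0.75 without the same dust lung. Lungs share depth and extraction day in these values, and no p is given.

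The 4 lungs with disagreeing labels bore on several calls. Without them the log2 fold changes of dust against saline were -1.14 for Thbd, -0.53 for Cdh5, -0.99 for Cdh13 and 1.19 for Selp, all still called by limma. Tspan7 at -1.03 (adjusted p = 0.083), Vegfa at -0.79 (0.0554), Flt1 at -0.38 (0.174) and Vcam1 at 0.40 (0.0588) kept their sizes within 1.5 times and lost their calls. With lungs grouped by their characteristics, 7 of 8 members stayed called and Flt1 did not (-0.38, limma adjusted p = 0.104). In Fat-1 lungs 0 members were called without the disagreeing lungs and 1 by characteristics, and in WT lungs Thbd lost its call without them (limma adjusted p = 0.0994). On day 1 Flt1 (-0.58, limma adjusted p = 0.0527) and Tspan7 (-1.18, limma adjusted p = 0.0743) lost their calls without them.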

How the data were processed

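RNA of the left lung was counted on a NanoString nCounter mouse myeloid panel in 23 mice. The deposited values are a signal: per the file headers and the values, the authors multiplied probe counts by 1 scale factor per lung (0.682 to 4.21), with counts under 20 given as 20 and left unscaled. The sources used here do not say which genes and software gave the factor. Values above 20 were whole multiples of that factor in 100.0% of cases, within 0.1 steps. No count model was fitted, since counts under the floor are hidden.

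Each lung is a separate mouse. Within groups no lung looked like another deposited again: over the 23 pairs, chi-square of the counts was at least 4.14 per degree of freedom. Pairs across groups were not checked in this way. Groups were taken from the extract code. Extraction day was read from the same code, and 2 lungs of each day ran on the other day's cartridge. With limma 3.58.1 (R 4.3.3), log2(value + 1) was fitted over the 711 genes above the floor in at least 1 lung, using two-sided tests with p-values adjusted over these genes by Benjamini-Hochberg. A group-means model gave the exposure, genotype and sex comparisons, and a model of exposure by day with genotype and sex gave those of the days. The models were tested on simulated data. Fold changes are on the log2(value + 1) scale. Python 3.11.15 with pandas 2.3.3, numpy 2.4.6, scipy 1.17.1 and matplotlib 3.10.9 made the tables and plots.

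Alternatives were the scaling (20 housekeeping genes, or the median of 470 genes), a common floor of 84.3, a pseudocount of 20, other filters on low values, day, cartridge or replicate as a block, labels from the characteristics, lung weights, a moderated test with trend, and lungs left out. Leaving out the 2 saturated lungs, and leaving out 1 lung from the differences and correlations between members, were chosen after seeing the data. The members and lists were chosen with earlier results of these data known. All 8 members were tested in every comparison, and the text names those with calls or the widest differences where few or none passed. From each pathway list up to 6 further genes with the smallest p are named, and for each member up to 2 genes with the highest r over the dust lungs. One gene from the pathway lists is not reported here. The accessions of 8 of 8 members matched RefSeq genes of the same symbol. Promoters come from RefSeq, and the sources used here name no genome build for the probes.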

Additional observations from a re-analysis of the deposited data

Results flagged for a closer look

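In 75 groups of 4 to 10 lungs with no value at the floor, the highest and lowest lung of each member were compared with the rest on the log2 scale by Dixon's criterion, which chance passes in about 1 in 20 groups, and 10 values stood apart. Fat-1 female dust lung 2 of day 1 was the lowest Fat-1 dust lung for Thbd at 628.76, where the next was at 1977.89. It was also the lowest for Vegfa at 638.22 and for Tspan7 at 198.56, both among the Fat-1 dust lungs and among the dust lungs of day 1. The next lowest of the Fat-1 dust lungs were at 2656.96 and 2061.29, and the next lowest of the day 1 dust lungs at 2353.48 and 1212.31. These values come from 1 lung and are not independent.

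WT female saline lung 1 of day 1 was the lowest saline lung for Tspan7 at 1912.18, with the next at 3705.79 among all saline and WT saline lungs and at 3841.33 among those of day 1. The same lung was the highest saline lung for Cdh5 at 2087.19, with the next at 1624.95. In saline lungs of day 2 Selp was highest at 75.47 in WT female saline lung 1, with the next at 49.29.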

How the results depend on the processing

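Over 104 results on single members and 41 alternative settings, 3712 of 3918 values kept their side of the threshold, 164 lost a call and 41 gained one. Among values that were not called, 177 changed sign. A value turned direction and was called in 1 case: Thbd in Fat-1 against WT dust lungs was -0.02 with equal weights and 0.58 with lung weights (limma adjusted p = 0.0365), so that 1 member in place of 0 was called. Counts below are of members called by limma. In dust against saline, 8 became 4 in the lungs of day 1 alone, 0 in those of day 2 alone and 4 without the lungs with disagreeing labels. The replicate numbers gave no sign of pairing: lungs with the same day and number had a median r of -0.01 over 65 pairs, and 24 were over 0.1. Other pairs had a median r of -0.03 over 165 pairs, and 56 were over 0.1. Because r was taken on deviations from means of few lungs, this check cannot exclude a pairing. With a replicate block 7 members were called in dust against saline, 2 in WT and 5 in Fat-1, and with a replicate block within day 5, 2 and 0. In WT, 3 became 0 in day 2 lungs, 8 with lung weights and 1 to 5 when each lung was left out. In Fat-1, 6 became 1 in day 1 lungs, 0 in day 2 lungs, 1 by characteristics, 0 without the lungs with disagreeing labels, 1 without the saturated lungs and 0 to 7 when each lung was left out. On day 2, 0 became 1 on the housekeeping scale (Cdh5), with median centring (Cdh5) and with the common floor (Cdh13), and 0 to 1 when each lung was left out. In the day difference, 0 became up to 2 when each lung was left out. Between days in dust lungs, 2 became 4 with median centring, 1 with the common floor, 1 without a filter, 1 with genes above the floor in every lung, 1 without the lungs with disagreeing labels, 4 without the saturated lungs and 0 to 4 when each lung was left out. Counts over all genes moved by over 1.5 times as follows. In day 2 lungs alone, 379 calls in dust against saline became 1, 251 in WT became 1 and 271 in Fat-1 became 6. Without the lungs with disagreeing labels WT became 139, Fat-1 69, day 2 24 in place of 94 and the day difference 31 in place of 12. By characteristics Fat-1 became 167, and with a replicate block within day 160. With lung weights WT became 388 and Fat-1 against WT dust lungs 97 in place of 0. Without the saturated lungs day 2 became 9, the day difference 104 and the days in dust lungs 224 in place of 108. When each lung was left out, WT ran from 117 to 307, Fat-1 from 164 to 336, day 2 from 26 to 149, the day difference from 4 to 145 and the days in dust lungs from 12 to 238. Without the 2 doubted lungs the days in dust lungs became 64 and the day difference 3, and the latter became 6 without a filter and 0 with the common floor or with genes above the floor in every lung. The comparisons of genotype and sex, with 0 calls, reached at most 15 under the settings other than these lung weights, and the days in saline lungs, with 1 call, 0 to 6. The causes were not tested. Low counts limit Cdh13, with 39 to 84 counts in dust lungs above the floor, and the floor limits Selp.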
